A study of Mus musculus with 6 samples.

Results

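The genes described here encode the ligands and receptors of axon guidance. They are 17 semaphorins, 8 plexins and 2 neuropilins, 10 Eph receptors and 6 ephrins, 3 Slits and 3 Robos, 2 netrin-Gs and 4 netrin receptors of the Dcc and Unc5 families. The 55 members were taken by gene name from the 55471 genes of the count table, and all 55 were among the 17981 genes that passed the filter on low counts and were tested. RNA-seq was performed on the hippocampus of C57BL/6 mice aged 3 to 6 months, with 3 Control libraries and 3 CBP-ifKO libraries. CBP-ifKO mice carried floxed Crebbp alleles (Crebbp_flox), which encode the histone acetyltransferase CBP, together with the Camk2a_creERT2 transgene, a tamoxifen-inducible Cre recombinase whose promoter is active in forebrain excitatory neurons. The protocol describes Control mice as littermates without the transgene, although their description field lists it, and both groups received tamoxifen. Per the study's methods, each library pooled the hippocampi of 3 female mice, so that the p-values below measure the spread between pools. Interneurons, glia and vascular cells of the same tissue are not targeted by this promoter.

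Guidance cues were first described as the signals that attract or repel growing axons in the embryo. Semaphorins act through plexins, with neuropilins as co-receptors for most secreted forms, ephrins act through the Eph receptor tyrosine kinases, Slits through Robos, and netrins through Dcc and Unc5 receptors. In the adult hippocampus many of these proteins remain expressed, and several are known from work on dendritic spines, mossy fibers and synaptic plasticity.

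Library totals ran from 10199008 to 14950257 counts. Crebbp, counted over the whole gene, was at 209, 156 and 208 CPM (counts divided by the TMM-corrected library size) in Control 1 to 3 and at 109, 87.1 and 99.4 CPM in CBP-ifKO 1 to 3, a log2 difference of -0.96 (SE 0.10, adjusted p = 3.63e-05). Esr1, whose ligand-binding domain is part of the creERT2 transgene, was at 5.65 to 6.29 CPM in Control and at 63.6 to 69.4 CPM in CBP-ifKO libraries, so the transgene and the Crebbp deletion cannot be told apart in this comparison. Marker genes of excitatory neurons (5 genes) summed to 2530 to 2950 CPM in Control, against 56.6 to 62.4 CPM for 6 thalamic and 33.3 to 38.7 CPM for 6 striatal markers. A list is described below by its counts and its median, since its genes were named with earlier results of these data known.

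In CBP-ifKO hippocampi, 17 of the 55 guidance genes differed from Control at an adjusted p under 0.05 (edgeR quasi-likelihood test, Benjamini-Hochberg adjustment over all genes tested), which is 30.9% of them, against 6.39% of all genes tested. Lower levels were found for 16 members (29.1%, against 4.99% of all genes) and a higher level for 1 member, the Eph receptor gene Epha7 (against 1.4% of all genes). Lower were the semaphorins Sema3d, Sema3e, Sema6b and Sema7a, the plexins Plxna1, Plxna2 and Plxna4, the neuropilin Nrp2, the Eph receptors Epha10 and Ephb6, the ephrins Efna3, Efnb2 and Efnb3, Slit2 and Slit3, and the netrin receptor Unc5a. The changes were moderate, from -0.67 to -0.24 on the log2 scale among the members that fell. Over all 55 members the median log2 difference was -0.20, against -0.0033 over all genes tested. Below 0 were 49 members (89.1%, against 50.7% of all genes tested), and 42 with GC and length trends removed. Differential expression is easier to detect in abundant transcripts. Among the 49 members with a mean of at least 10 CPM, 34.7% were called, 32.7% lower, whereas of the 10096 genes tested at such levels 9.43% were called, 7.46% lower and 1.97% higher. Levels in the 3 CBP-ifKO libraries were all below those in the 3 Control libraries for 28 members (against 13.9% of all genes tested) and all above them for 2 (against 11.8%), and the groups overlapped for 25, where 25.6% of all genes had separate groups in either direction. With fewer libraries the count of 17 called members was 9 without Control 3, 11 without CBP-ifKO 2 and 12 without CBP-ifKO 3. Over all genes the count of 1149 fell to 546, 498 and 526 in these fits, in that order. Because the tissue was sequenced in bulk, fewer cells of a type and less RNA per cell cannot be told apart for any of these genes.

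**Figure D1:**
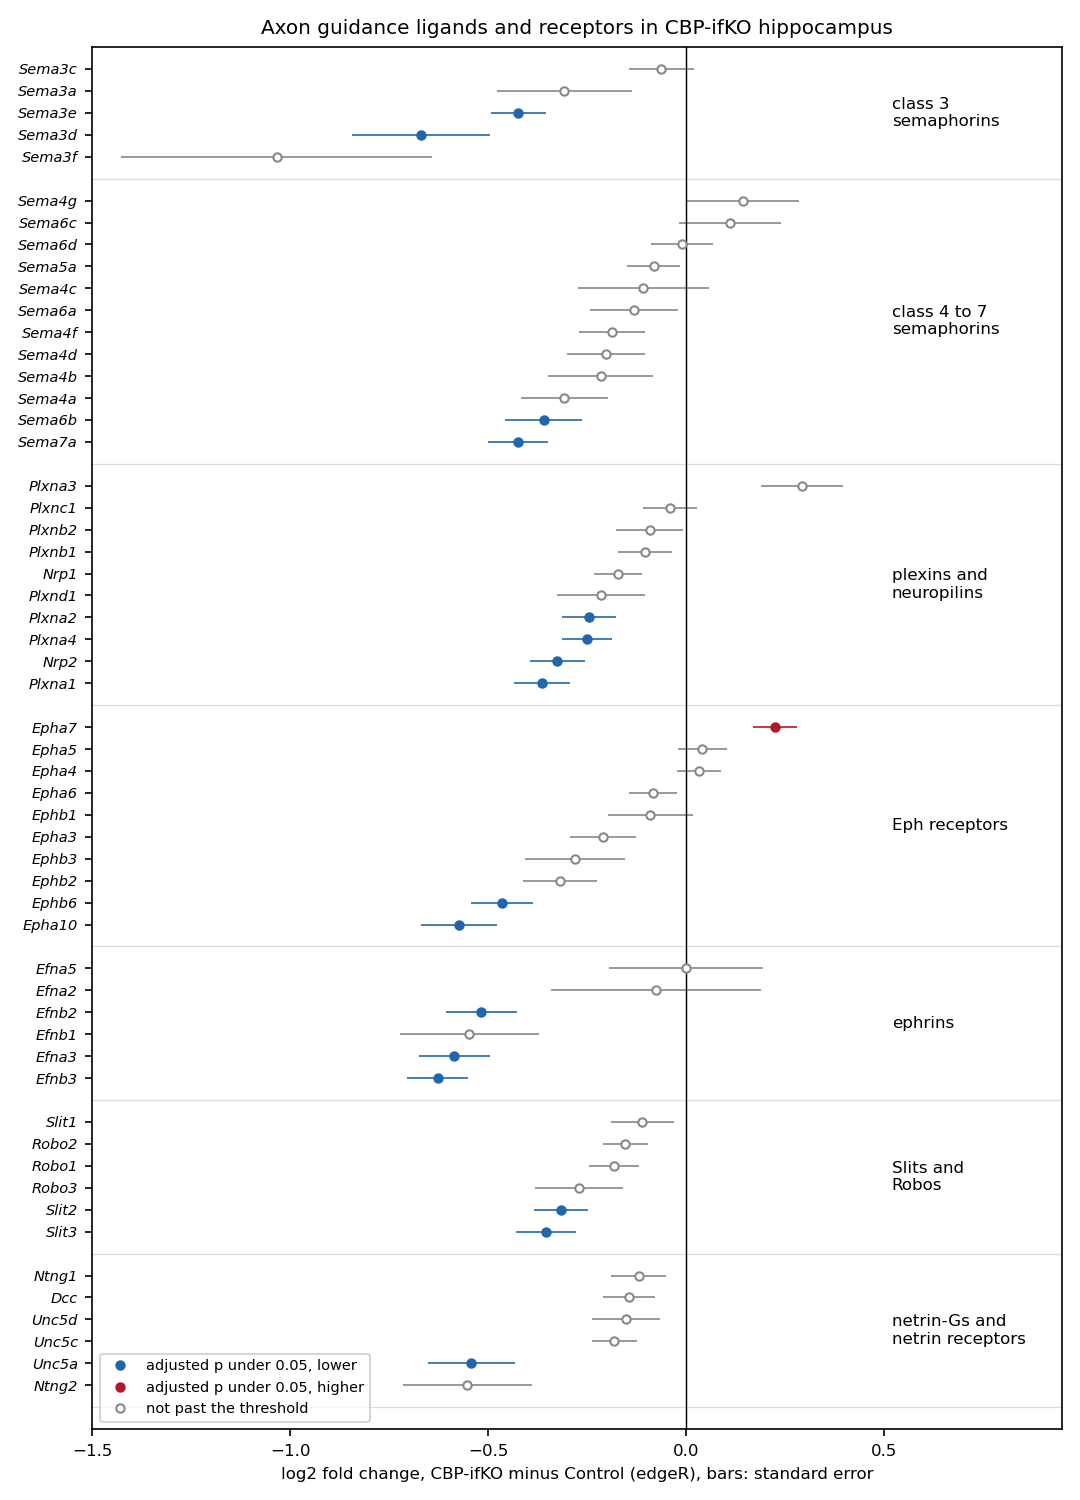
Log2 fold change of each of the 55 guidance genes (CBP-ifKO minus Control, horizontal axis, bars give the standard error), grouped by family and ordered by size within it. Filled points mark the 16 lower genes and the 1 higher gene, Epha7, and 49 points lie left of 0.

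Both ligands and receptors were among the lower genes. Of 28 ligand genes 9 were lower (32.1%, against 4.99% of all genes tested) and none was higher, with a median log2 difference of -0.26. Of 27 receptor genes 7 were lower (25.9%) and 1 was higher, with a median of -0.18. The order of these medians was not stable, since that of the ligands moved to -0.15 without CBP-ifKO 2 and to -0.13 with GC and length trends removed, against -0.17 and -0.15 for the receptors. Without Control 3, 5 ligand and 4 receptor genes were lower, and 4 receptor genes without CBP-ifKO 2 or CBP-ifKO 3. The calls over all genes also fell in these fits, as given above. By family the medians were -0.53 in the ephrins, -0.42 in the secreted class 3 semaphorins, -0.23 in Slits and Robos, -0.19 in plexins and neuropilins, -0.17 in the netrin group, -0.16 in the membrane-bound semaphorins and -0.15 in the Eph receptors. With GC and length trends removed they were -0.44 in the ephrins, -0.45 in class 3 and -0.071 in the membrane-bound semaphorins, and the last was at -0.061 without CBP-ifKO 2. No difference between these families was tested.

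CBP owes its name to the transcription factor CREB, which binds the cAMP response element TGACGTCA and, with lower affinity, its half-site TGACG. The 250 bases before the transcription start of 4 members are printed here because of their calls. Of these, 3 (Efna3, Efnb2 and Sema3e) stand for lower genes whose call held in every fit tried. The last, Epha7, is the 1 member called higher in the reported fit, a call that did not hold in every fit. The sequences are from RefSeq (GRCm38.p6), read 5′ to 3′ on the strand of the gene, and capitals mark the half-site on either strand. They lie at chr3:89322940-89323189 on the minus strand, chr8:8661243-8661492 on the minus strand, chr5:14025026-14025275 on the plus strand and chr4:28812881-28813130 on the plus strand.
Efna3: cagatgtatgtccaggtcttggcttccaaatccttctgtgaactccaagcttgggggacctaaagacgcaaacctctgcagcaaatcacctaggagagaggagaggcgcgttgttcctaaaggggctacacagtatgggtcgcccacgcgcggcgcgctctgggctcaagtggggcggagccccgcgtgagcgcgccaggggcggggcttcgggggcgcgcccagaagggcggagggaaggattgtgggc
Efnb2: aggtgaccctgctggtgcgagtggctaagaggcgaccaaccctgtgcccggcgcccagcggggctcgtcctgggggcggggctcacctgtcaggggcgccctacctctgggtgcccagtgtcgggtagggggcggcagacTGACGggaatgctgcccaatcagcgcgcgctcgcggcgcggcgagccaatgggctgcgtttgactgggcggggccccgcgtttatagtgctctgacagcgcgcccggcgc
Sema3e: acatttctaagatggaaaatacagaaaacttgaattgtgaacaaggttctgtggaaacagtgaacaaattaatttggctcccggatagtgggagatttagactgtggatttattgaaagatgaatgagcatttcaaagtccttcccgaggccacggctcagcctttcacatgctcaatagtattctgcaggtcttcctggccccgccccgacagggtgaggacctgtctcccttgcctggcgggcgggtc
Epha7: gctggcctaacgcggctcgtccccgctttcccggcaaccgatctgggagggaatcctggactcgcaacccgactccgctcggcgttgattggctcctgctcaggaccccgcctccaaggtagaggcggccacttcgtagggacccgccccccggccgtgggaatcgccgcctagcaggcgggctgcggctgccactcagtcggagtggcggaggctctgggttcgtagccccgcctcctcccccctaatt
A half-site was present only in the Efnb2 window among these 4, 110 bases before the start. A RefSeq window was at hand for 47 members, taken only at the first listed start of each gene, and for 40 its strand was matched to a transcript. Of these 47, 6 held TGACG on either strand (12.8%), against 17.9% of 27025 mouse promoters of the same length. The 6 were Sema3d and Efnb2, which fell, and Epha4, Ephb3, Efnb1 and Unc5c, which were not called. Among the 13 lower members with a window the share was 15.4%, and among the 33 uncalled members 12.1%. The lower members Plxna1, Plxna4 and Efnb3 had no window. The full TGACGTCA was found in none of the 47 windows and in 1.62% of all promoters. The members' windows had a median GC content of 64.4%, against 52.0% for all promoters, and 25.5% of them held CCAAT on either strand, against 34.5%. These counts describe letters in a short window and say nothing about binding.

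Among the class 3 semaphorins, the secreted cues that signal through neuropilins and A-type plexins, 2 of 5 genes were lower. Sema3e, which is unusual in that it can bind Plexin-D1 without a neuropilin, was the highest of the 5 per kilobase of exon. Its level was 143, 126 and 130 CPM in Control 1 to 3 and 96.3, 106 and 95.0 CPM in CBP-ifKO 1 to 3. The CBP-ifKO libraries all lay below the lowest Control library, and the log2 difference was -0.42 (SE 0.069, adjusted p = 0.00134). Sema3d was at 13.5, 12.9 and 16.5 CPM in Control and at 12.4, 7.16 and 7.82 CPM in CBP-ifKO libraries. The groups did not overlap, but CBP-ifKO 1 came close to the lowest Control library, and the log2 difference of -0.67 (SE 0.17, adjusted p = 0.0300) was no longer called without Control 3 (-0.55, adjusted p = 0.159), CBP-ifKO 2 (-0.50, adjusted p = 0.181) or CBP-ifKO 3 (-0.57, adjusted p = 0.150).

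The remaining class 3 genes did not pass the threshold. Sema3f, a repellent of mossy fiber and other limbic axons that acts through neuropilin-2, was scarce. It was at 1.41, 2.92 and 1.19 CPM in Control and 0.969, 0.592 and 1.23 CPM in CBP-ifKO libraries. The groups overlapped, and its log2 difference of -1.03 had a standard error of 0.39 (adjusted p = 0.133). Sema3c stayed within the spread of the replicates, with 36.2, 33.2 and 32.8 CPM in Control and 32.6, 34.0 and 31.3 CPM in CBP-ifKO libraries (adjusted p = 0.730). Sema3a, the classical growth cone collapsing factor, averaged 6.56 ± 0.528 CPM (SD, n = 3) in Control and 5.35 ± 0.907 CPM in CBP-ifKO libraries (log2 difference -0.31, adjusted p = 0.322).

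Of the 12 semaphorins anchored in the membrane (classes 4 to 7) 2 were lower, Sema7a and Sema6b. Sema7a, a lipid-anchored semaphorin that signals through Plexin-C1 and integrins, was at 84.7, 99.4 and 82.9 CPM in Control and at 69.7, 65.3 and 64.3 CPM in CBP-ifKO libraries. The groups were separate, and the log2 difference was -0.42 (SE 0.076, adjusted p = 0.00288). Sema6b, a transmembrane ligand of A-type plexins known from mossy fiber targeting, was at 56.0, 70.5 and 73.1 CPM in Control and at 52.8, 46.5 and 56.6 CPM in CBP-ifKO libraries. It was the 1 called member whose groups overlapped, since CBP-ifKO 3 lay above Control 1. Its log2 difference of -0.36 (SE 0.097, adjusted p = 0.0347) was -0.077 (adjusted p = 0.625) when trends with GC content and gene length were removed. It was not called when any single library other than Control 1 was left out (-0.42 to -0.27, adjusted p = 0.0558 to 0.191), nor with scaling to library totals only (-0.31, adjusted p = 0.0520).

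The other 10 membrane-bound semaphorins were not called. Sema5a, the highest of them per kilobase of exon (9.54 ± 0.863 CPM per kb in Control), was at 195, 163 and 178 CPM in Control and 172, 162 and 172 CPM in CBP-ifKO libraries, within the spread of the replicates. Sema4a had the smallest unadjusted p of this group, with 17.7, 16.2 and 17.5 CPM in Control and 14.1, 14.7 and 12.5 CPM in CBP-ifKO libraries. Its groups were separate, yet the log2 difference of -0.31 did not pass (adjusted p = 0.110). The log2 differences of Sema4b, Sema4c, Sema4d, Sema4f, Sema6a and Sema6d ranged from -0.22 to -0.011, and Sema4g and Sema6c were at 0.14 and 0.11. Sema4c and Sema6d turned above 0 with GC and length trends removed (0.03 and 0.01).

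Semaphorin receptors were lower for 4 of 10 genes. The A-type plexins transduce class 3 signals with the neuropilins and bind class 6 semaphorins directly, and 3 of the 4 genes of this subfamily fell. Plxna4, the most abundant plexin here per kilobase (27.7 ± 2.06 CPM per kb in Control), was at 400.0, 358 and 414 CPM in Control and at 340.0, 310.0 and 336 CPM in CBP-ifKO libraries. Plxna2 was at 235, 211 and 239 CPM in Control and at 208, 179 and 192 CPM in CBP-ifKO libraries. Plxna1 was at 164, 158 and 178 CPM in Control and at 140.0, 118 and 131 CPM in CBP-ifKO libraries. In all 3 genes each CBP-ifKO library was below each Control library. The log2 differences were -0.36 for Plxna1 (SE 0.070, adjusted p = 0.00478), -0.25 for Plxna4 (SE 0.064, adjusted p = 0.0272) and -0.24 for Plxna2 (SE 0.067, adjusted p = 0.0390). Those of Plxna2 and Plxna4 were not called without Control 1, Control 3, CBP-ifKO 2 or CBP-ifKO 3 (-0.23 to -0.19 for Plxna2 with adjusted p = 0.106 to 0.192, and -0.25 to -0.20 for Plxna4 with adjusted p = 0.0748 to 0.169). Scaling to library totals only also ended both calls (adjusted p = 0.0834 for Plxna2 and 0.0601 for Plxna4), and upper-quartile factors ended that of Plxna2 (adjusted p = 0.0575). Plxna1 was not called with GC and length trends removed (-0.21, adjusted p = 0.0544), and 10.7% of its exonic bases overlap Gm26811 on the other strand, from which its reads may not have been separated.

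The remaining A-type plexin, Plxna3, is singled out here after its values were seen. Its libraries went the other way, with 26.7, 31.2 and 30.6 CPM in Control and 36.0, 31.4 and 41.5 CPM in CBP-ifKO libraries. CBP-ifKO 2 barely exceeded the highest Control library, and the log2 difference of 0.29 did not pass (SE 0.10, adjusted p = 0.106), although it did with no filter on low counts, with GC and length offsets and without CBP-ifKO 2 (log2 difference of 0.20 to 0.40 over all fits). Nrp2, the co-receptor preferred by Sema3f, fell from 104, 92.5 and 106 CPM in Control to 84.6, 78.1 and 79.2 CPM in CBP-ifKO libraries. Its groups were separate, with a log2 difference of -0.33 (SE 0.070, adjusted p = 0.00917), and it was not called without Control 3 (-0.29, adjusted p = 0.0744), CBP-ifKO 2 (-0.29, adjusted p = 0.0589) or CBP-ifKO 3 (-0.30, adjusted p = 0.0709). Nrp1, the co-receptor of Sema3a, was at 176, 161 and 167 CPM in Control and at 142, 154 and 151 CPM in CBP-ifKO libraries. Here too the groups were separate, and the log2 difference of -0.17 missed the threshold (adjusted p = 0.104) but passed it with GC and length trends removed (-0.20, adjusted p = 0.0365). Plxnd1, Plxnb2, Plxnb1 and Plxnc1 had log2 differences of -0.22, -0.092, -0.10 and -0.040 and were not called. With GC and length trends removed, Plxnd1, Plxnb2 and Plxnb1 turned to 0.02, 0.06 and 0.06. Sema3e and Sema7a thus fell while the transcripts of their receptors, Plxnd1 (adjusted p = 0.282) and Plxnc1 (adjusted p = 0.800), did not pass the test. Whether ligand and receptor differed in their change was not tested.

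**Figure D2:**
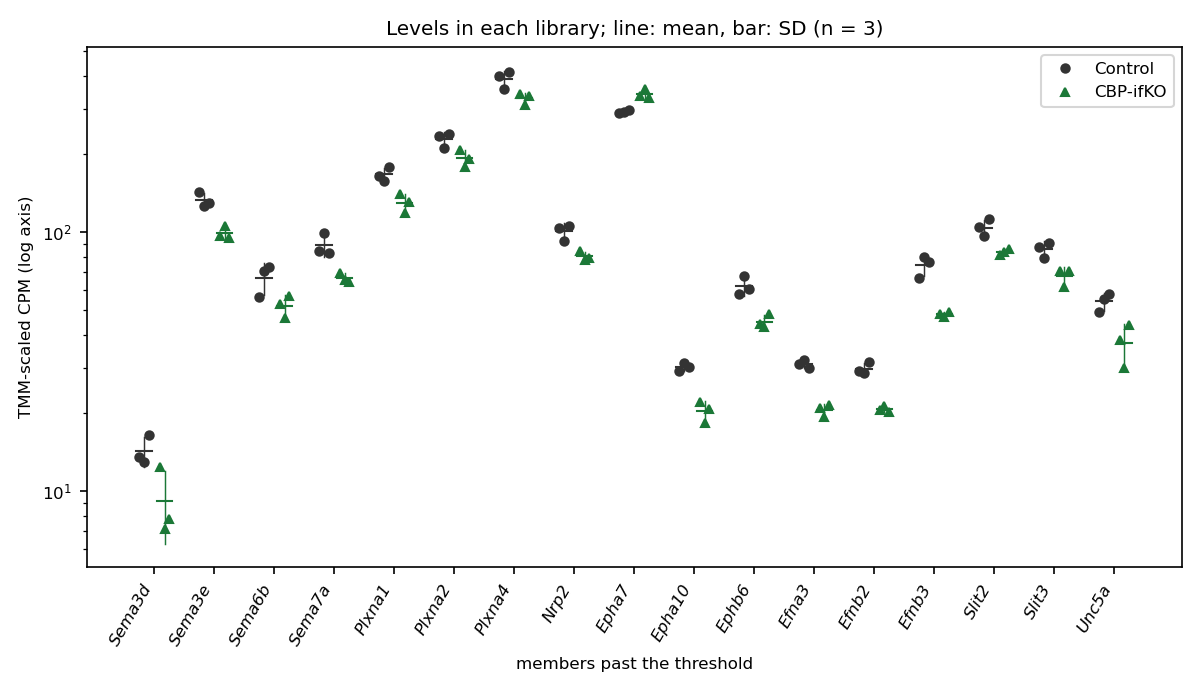
TMM-scaled CPM (log axis) of the 17 called guidance genes in each Control library (circles) and each CBP-ifKO library (triangles), where lines give the mean and bars the SD of 3 libraries. Circles and triangles are separate for 16 genes and overlap for Sema6b, and the triangles are higher for Epha7 alone.

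Ephrins were the family with the largest share of lower genes in the reported fit, at 3 of 6, against 4.99% of all genes tested. This lead did not hold in every fit. Slits and Robos also had 3 of 6 lower without Control 2. With a replicate block and GC and length offsets they again had 3 of 6, and plexins and neuropilins had 5 of 10. The B-type ephrins span the membrane and can signal back into the cell that carries them, whereas A-type ephrins are lipid-anchored. Efnb3 was at 66.7, 80.1 and 76.4 CPM in Control and at 48.4, 47.0 and 49.2 CPM in CBP-ifKO libraries. The CBP-ifKO libraries lay close together and well below Control, and the log2 difference of -0.63 (SE 0.076, adjusted p = 1.37e-04) had the smallest p of all 55 members. Efna3 was at 30.9, 32.0 and 29.8 CPM in Control and at 20.9, 19.4 and 21.6 CPM in CBP-ifKO libraries, again with separate groups (log2 difference -0.59, SE 0.090, adjusted p = 8.98e-04). Of its exonic bases 14.1% overlap Gm15998 on the other strand. Efnb2, the 1 gene of those printed above with a half-site, was at 29.0, 28.6 and 31.4 CPM in Control and at 20.5, 21.3 and 20.2 CPM in CBP-ifKO libraries. The groups were separate, and the log2 difference was -0.52 (SE 0.089, adjusted p = 0.00214). These 3 calls held in all 16 alternative fits, with log2 differences between -0.70 and -0.47.

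Efnb1, the remaining B-type ephrin, had a similar but less precise difference. It was at 6.95, 9.62 and 8.43 CPM in Control and at 6.59, 4.53 and 6.25 CPM in CBP-ifKO libraries. The groups were separate by a small margin, and the log2 difference of -0.55 (SE 0.18) did not pass (adjusted p = 0.0760), although it did with no filter on low counts (adjusted p = 0.0321) and without Control 1 (-0.66, adjusted p = 0.0423). Efna2 (3.15 ± 1.03 CPM in Control) and Efna5 (4.75 ± 0.636 CPM in Control) were scarce, and their groups overlapped. Efna2 turned from -0.075 to 0.09 with GC and length trends removed.

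The Eph receptors were divided. Epha10 and Ephb6, both of which lack an active kinase domain, were lower. Epha10 was at 29.0, 31.3 and 30.1 CPM in Control and at 22.1, 18.3 and 20.7 CPM in CBP-ifKO libraries, and Ephb6 was at 57.9, 67.6 and 60.3 CPM in Control and at 44.0, 42.9 and 48.1 CPM in CBP-ifKO libraries. Groups were separate for both, with log2 differences of -0.57 (SE 0.095, adjusted p = 0.00158) and -0.46 (SE 0.078, adjusted p = 0.00176). With GC and length trends removed both were smaller but still called, at -0.37 (adjusted p = 0.0140) and -0.28 (adjusted p = 0.0130). Epha7, a receptor for A-type ephrins that is known from dendritic spine formation, was the 1 member called higher. It was at 289, 290.0 and 295 CPM in Control and at 334, 357 and 330.0 CPM in CBP-ifKO libraries. Control libraries were nearly equal and each CBP-ifKO library exceeded them, with a log2 difference of 0.23 (SE 0.056, adjusted p = 0.0219). The call was lost without Control 1 (0.22, adjusted p = 0.0643), Control 3 (0.24, adjusted p = 0.0821), CBP-ifKO 2 (0.20, adjusted p = 0.0843) or CBP-ifKO 3 (0.26, adjusted p = 0.0562).

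Epha4, the receptor for both ephrin types that has been studied most in hippocampal plasticity, had the highest level of all 55 members per kilobase. It was at 707, 754 and 689 CPM in Control and at 724, 756 and 720.0 CPM in CBP-ifKO libraries. The groups overlapped closely, and the log2 difference of 0.033 (SE 0.056) was not called (adjusted p = 0.794). Ephb2, a receptor that clusters with NMDA receptors, was at 25.8, 27.3 and 26.9 CPM in Control and at 23.5, 20.9 and 19.9 CPM in CBP-ifKO libraries. Its groups were separate, but the log2 difference of -0.32 narrowly missed the threshold (adjusted p = 0.0554), and passed it in limma-voom (adjusted p = 0.0493) and without CBP-ifKO 1 (-0.38, adjusted p = 0.0410). The other Eph receptors were not called, with log2 differences of 0.041 for Epha5, -0.083 for Epha6, -0.090 for Ephb1, -0.21 for Epha3 and -0.28 for Ephb3.

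Slits are secreted repellents, and 2 of the 3 genes were lower. Slit2 was at 105, 96.2 and 112 CPM in Control and at 81.8, 83.5 and 85.9 CPM in CBP-ifKO libraries, and Slit3 was at 87.9, 79.7 and 91.1 CPM in Control and at 70.9, 61.3 and 70.6 CPM in CBP-ifKO libraries. Groups were separate for both, with log2 differences of -0.32 (SE 0.068, adjusted p = 0.00926) and -0.35 (SE 0.076, adjusted p = 0.00948). Both calls rested on Control 3, without which the adjusted p was 0.0852 for Slit2 (-0.26) and 0.0735 for Slit3 (-0.31). Slit3 was also lost without CBP-ifKO 2 (-0.28, adjusted p = 0.0723) and with GC and length trends removed (-0.22, adjusted p = 0.0890). Slit1, the highest of the 3 per kilobase (33.8 ± 1.62 CPM per kb in Control), was at 211, 192 and 199 CPM in Control and at 204, 159 and 194 CPM in CBP-ifKO libraries. Its groups overlapped, the log2 difference of -0.11 was not called (adjusted p = 0.464), and its direction turned with GC and length trends removed (0.062).

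None of the Robo genes, which encode the Slit receptors, was called. Robo1 was at 129, 120.0 and 136 CPM in Control and at 115, 112 and 112 CPM in CBP-ifKO libraries, with separate groups and a log2 difference of -0.18 (adjusted p = 0.101). It passed without Control 2 (-0.22, adjusted p = 0.0326). Robo2 and Robo3 likewise had separate groups, with log2 differences of -0.15 (adjusted p = 0.125) and -0.27 (adjusted p = 0.166). All 6 Slit and Robo genes thus had log2 differences below 0, and 2 were called.

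In the netrin group 1 of 6 genes was lower. Unc5a, a netrin receptor that mediates repulsion, was at 49.3, 55 and 57.7 CPM in Control and at 38.3, 29.9 and 43.6 CPM in CBP-ifKO libraries. The CBP-ifKO libraries were spread over a wide range but stayed below Control, and the log2 difference was -0.54 (SE 0.11, adjusted p = 0.00619). With GC and length trends removed it was -0.29 and not called (adjusted p = 0.0769). Ntng2, which encodes the lipid-anchored synaptic protein netrin-G2, was at 12.7, 13.6 and 13.4 CPM in Control and at 9.69, 6.51 and 11.2 CPM in CBP-ifKO libraries. The groups were separate, and the log2 difference of -0.55 (SE 0.16) narrowly missed the threshold (adjusted p = 0.0535). It passed in 4 of the 16 alternatives. These were without CBP-ifKO 3 (-0.72, adjusted p = 0.0326), limma-voom (adjusted p = 0.0417), no filter on low counts (adjusted p = 0.00522) and a replicate block (adjusted p = 0.0379). With GC and length trends removed it was smaller and not called (-0.34, adjusted p = 0.182), and without CBP-ifKO 2 it was at -0.33 and not called. Of its exonic bases 14.0% overlap 6530402F18Rik on the same strand.

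Unc5c was at 215, 201 and 209 CPM in Control and at 187, 186 and 177 CPM in CBP-ifKO libraries. Its groups were separate, with a log2 difference of -0.18 that was not called (adjusted p = 0.0698). It passed in 2 of the 16 alternatives, without Control 2 (-0.20, adjusted p = 0.0393) and with GC and length offsets beside a replicate term (-0.18, adjusted p = 0.0152). Dcc, the attractive netrin receptor, Unc5d and Ntng1 had log2 differences of -0.14, -0.15 and -0.12.

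Compared per kilobase of exon, Control levels spanned a wide range. The highest were Epha4 at 89.0 ± 4.18 CPM per kb (SD, n = 3), Epha6 at 56.3 ± 3.79 and Slit1 at 33.8 ± 1.62, each apart from the next by more than its SD. They were followed by Epha7 at 29.5 ± 0.364, Plxna4 at 27.7 ± 2.06 and Sema7a at 27.0 ± 2.74 CPM per kb, where each differed from the next by less than the SD of the lower gene. The lowest were Sema3a at 0.473 ± 0.0381 and Sema3f at 0.354 ± 0.181 CPM per kb, which also differed by less than the SD of Sema3f. Of the 6 most abundant genes, Epha4, Epha6 and Slit1 were not called, Plxna4 and Sema7a fell, and Epha7 rose.

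**Figure D3:**
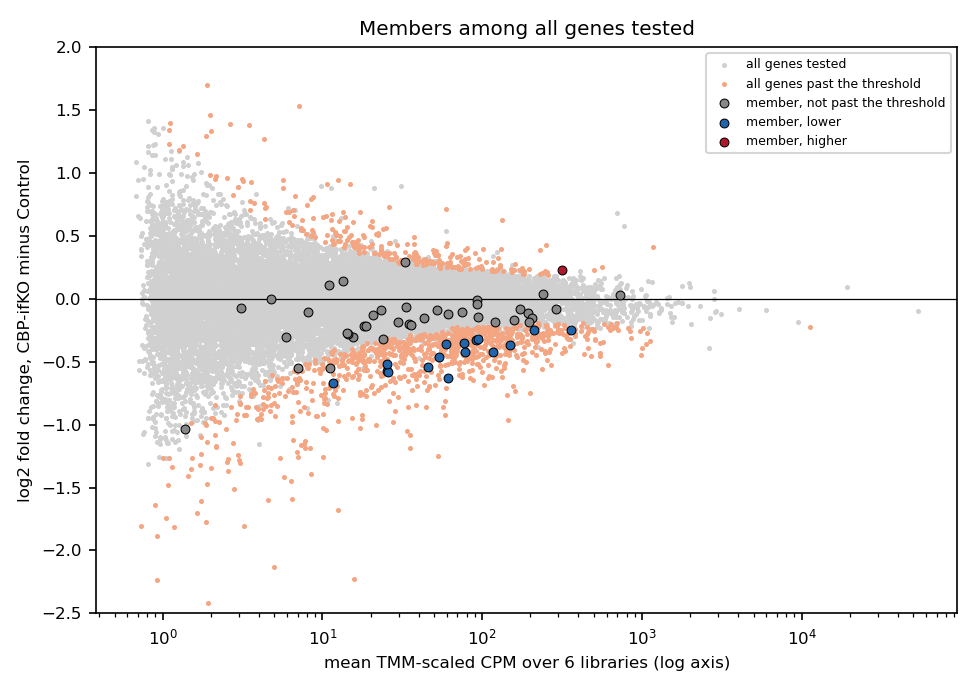
Log2 fold change against mean TMM-scaled CPM over the 6 libraries (log axis) for all 17981 genes tested, with the guidance genes as large points. The 16 lower members and Epha7 lie among the genes past the threshold (orange), between 10 and 400 CPM, and 2 genes fall outside the plotted range.

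Across the 16 alternative fits each of the 17 calls kept its direction, and DESeq2 called all 17 and no further member (against 5.84% of all genes it tested). The 7 genes Sema3e, Sema7a, Epha10, Ephb6, Efna3, Efnb2 and Efnb3 passed the threshold in every one of them. Of the lower genes, Sema3e, Sema7a, Epha10, Efna3 and Efnb3 also stand on the study's own list of lower genes. Per its methods, that list holds genes found in each of its RNA-seq experiments on CBP-ifKO mice. These were the pools used here, saline-treated males of the kindling experiment and standard-caged females of the enrichment experiment. The share of the pools in that list is not independent of the values above, and the other experiments were not examined here.

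**Figure D4:**
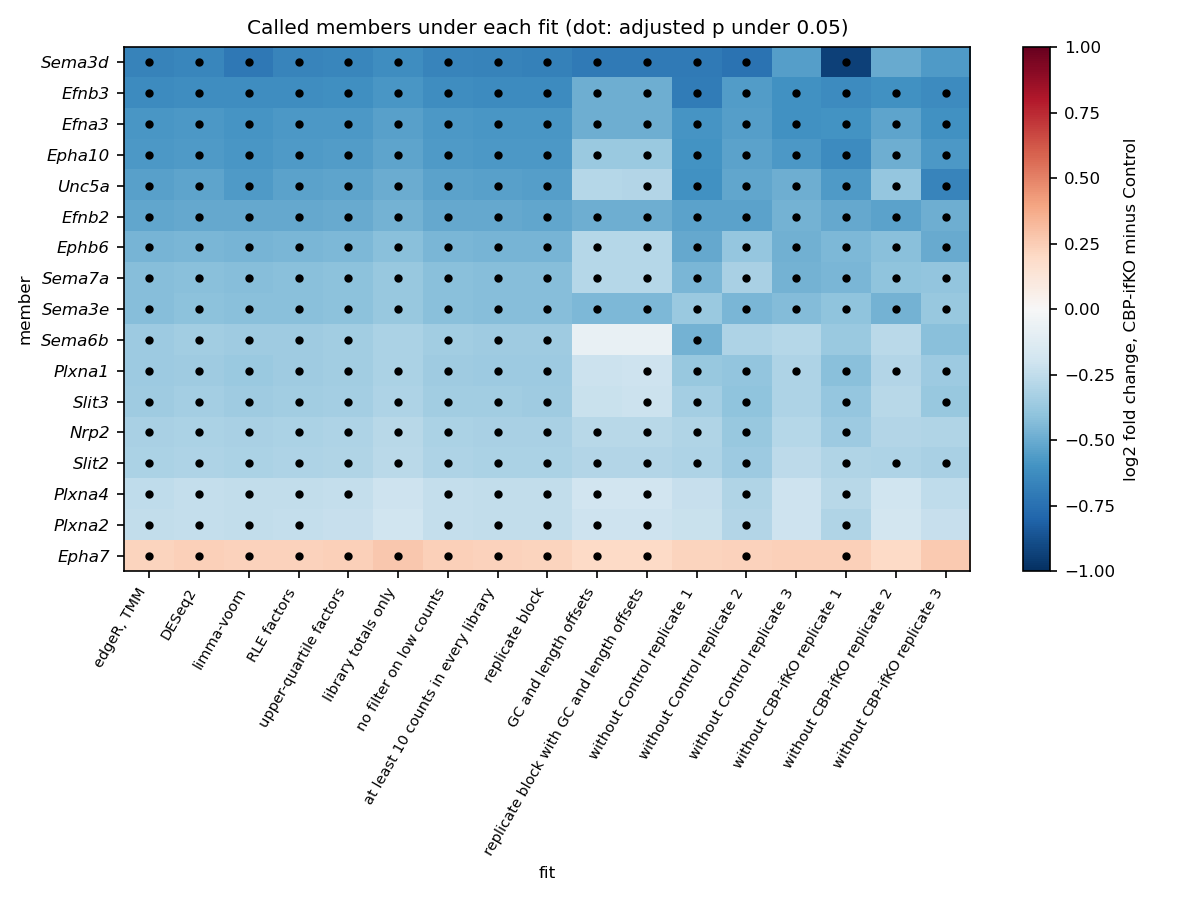
Log2 fold change (color) of the 17 called guidance genes under the reported fit (edgeR, TMM) and 16 alternatives, where a dot marks an adjusted p under 0.05. Signs do not change along any line, and 7 genes have a dot in every fit.

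Transcripts rich in G and C were lower in CBP-ifKO libraries over the whole table, and the guidance genes shared this trend. The Spearman correlation between log2 difference and GC content of the longest transcript was -0.29 over 17956 genes and -0.32 over the 55 members, which all come from the same 6 libraries. The median GC content was 56.5% for the 16 lower members, 53.0% for the 38 that were not called and 48.3% for all genes tested. When trends with GC content and length were removed in each library, the members' median moved from -0.20 to -0.15. That of all genes tested moved from -0.0033 to 0.015. In this fit 15 members were called, 13 lower and 2 higher, with 13 shared with the reported fit. The calls over all genes in the same fit are counted in the closing section. The calls of Sema6b, Plxna1, Slit3 and Unc5a were lost, and those of the 3 ephrins, Sema3d, Sema3e, Sema7a, Plxna2, Plxna4, Nrp2, Epha7, Epha10, Ephb6 and Slit2 remained. The part of base composition in the differences was not tested.

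**Figure D5:**
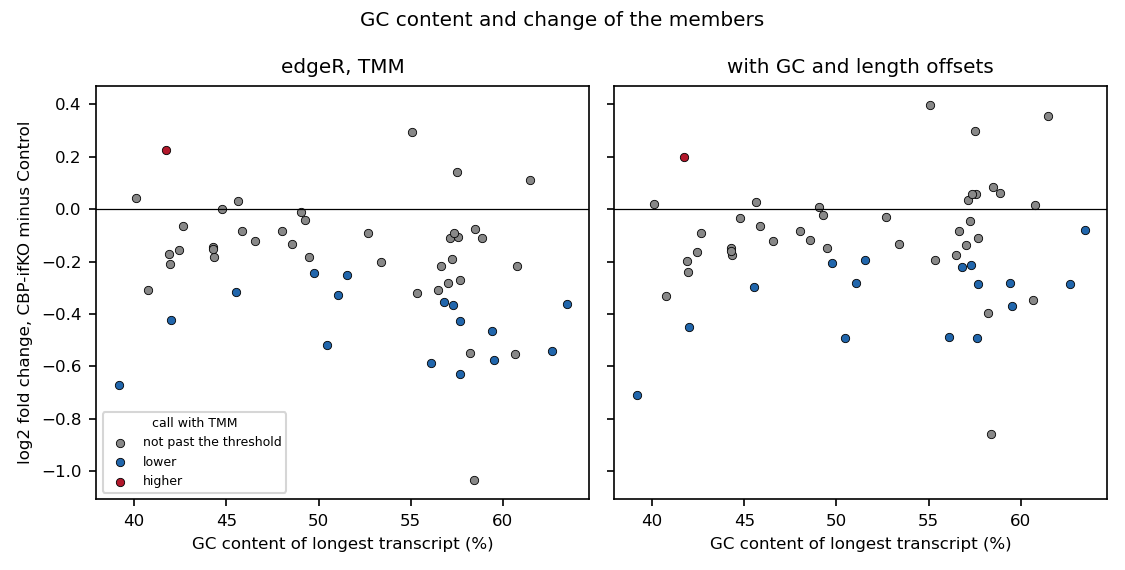
Log2 fold change of the 55 guidance genes against the GC content of their longest transcript (%), fitted with TMM scaling (left) and with GC and length offsets (right), where colors give the call on the left. The downward slope on the left (Spearman -0.32) is near 0 on the right (0.051).

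Guidance receptors relay their signals to the cytoskeleton through small GTPases, collapsin response mediator proteins and adaptors. Among 50 such intracellular effectors the median log2 difference was -0.12, and 36 were below 0 (72.0%, against 50.7% of all genes tested). Past the threshold, 7 were lower (14.0%) and none higher. They included Rnd1, a GTPase that binds plexins (-0.95, adjusted p = 0.0415), the collapsin response mediators Dpysl5 (-0.54, adjusted p = 0.0393) and Dpysl3 (-0.46, adjusted p = 9.17e-04), the adaptor Nck2 (-0.39, adjusted p = 0.00998) and the actin-binding Ablim3 (-0.36, adjusted p = 0.0401). The last 2 lower genes were Mical2 (-0.32, adjusted p = 0.00399) and Crmp1 (-0.27, adjusted p = 0.0494). Dpysl3 and Mical2 were called in all 16 alternatives, Nck2 in 14, Rnd1 in 11, Ablim3 in 9, Dpysl5 in 8 and Crmp1 in 3, and the last 5 were not called without CBP-ifKO 2. Of 34 further ligands, receptors and cofactors 31 were tested and 3 were lower, namely Flrt1, a partner of Unc5 receptors (-0.70, adjusted p = 6.71e-04), Lrrc4b, of the netrin-G ligand family (-0.57, adjusted p = 0.00205), and the Nogo receptor Rtn4r (-0.50, adjusted p = 0.00557). With GC and length trends removed Lrrc4b was at -0.30 and still called (adjusted p = 0.00982), whereas Rtn4r was at -0.24 and not called (adjusted p = 0.112). The median of the 31 was -0.16 and 29 of the 31 were below 0, against 50.7% of all genes tested. Of the 81 pathway genes tested outside the 55 members 12.3% were thus lower, between the 4.99% of all genes and the 29.1% of the members. For the 31 further ligands, receptors and cofactors the share was 9.68%. Among all genes tested with a mean of at least 10 CPM it was 7.46%, though the pathway lists were not restricted to such levels. DESeq2 called 6 of these 10 genes, and without Control 3, CBP-ifKO 2 or CBP-ifKO 3 the count was 6, 5 and 6.

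Markers of hippocampal cell types moved with the guidance genes in part. Summed levels of the 7 CA1 markers ran from 594 to 615 CPM in Control and from 432 to 460 CPM in CBP-ifKO libraries, with 5 of 7 lower. Those of CA2 (173 to 200 against 114 to 120 CPM, 2 of 6 lower) and CA3 (349 to 388 against 272 to 311 CPM, 2 of 6 lower) were also separate. The CA2 markers did not fall as a set, with a median log2 difference of -0.074. Rgs14 (-1.25) and Necab2 (-0.85) were called, whereas Amigo2, Pcp4 and Cacng5 were at -0.11, -0.033 and -0.018 and Map3k15 was at 0.50. Dentate granule markers overlapped in their sum (547 to 585 against 532 to 568 CPM). Of these 8 markers 3 were lower, C1ql2 (-2.22), Tdo2 (-0.89) and Pdzd2 (-0.57), against 4.99% of all genes tested. In direction, 6 of the 8 were below 0 and 2 above it, Prox1 (0.22) and Calb1 (0.23), which were not called. None of the 5 general excitatory markers was called (2530 to 2950 against 2670 to 3050 CPM). Interneuron markers summed to 558 to 593 CPM in Control and 505 to 538 CPM in CBP-ifKO libraries. Slc32a1 (-0.38) and Sst (-0.51) were lower among 8, and the median of the list was -0.13. The other 6 were not called, with Gad1, Gad2, Pvalb and Lhx6 at -0.060, -0.077, -0.19 and -0.19 and Vip and Npy at 0.16 and 0.11. With GC and length trends removed Slc32a1 was at -0.15 and Sst at -0.42. In that fit the CA1 marker Pou3f1 moved from -0.39 to -0.088, and the other called CA1 markers were at -1.05 to -0.27. Of the exonic bases of Slc32a1 24.9% overlap Gm14205 on the other strand. For astrocytes the sums were separate with no gene called (1840 to 1890 against 1700 to 1790 CPM, 8 genes). Sums overlapped for oligodendrocyte lineage (2450 to 2900 against 2510 to 2730 CPM, 1 of 8 lower), microglial (264 to 295 against 258 to 278 CPM, 0 of 8) and endothelial and mural markers (255 to 279 against 214 to 279 CPM, 0 of 8). They also overlapped for choroid plexus (40.6 to 54.0 against 30.9 to 55.1 CPM, 3 of 6 markers tested), Cajal-Retzius (147 to 175 against 154 to 166 CPM, 3 of 5 tested), thalamic (56.6 to 62.4 against 55.4 to 60.1 CPM, 6 genes) and striatal markers (33.3 to 38.7 against 32.6 to 34.9 CPM, 4 of 6 tested, with Rgs9 higher). No marker in these lists was at 0 counts in all libraries. The part of cell composition in the differences of the guidance genes was not tested.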

How the data were processed

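Total RNA of 6 hippocampal libraries was sequenced single-end. Per the submitters' processing notes and the study's methods, reads were checked with FastQC 0.11.8, trimmed with Trim Galore 0.6.4, aligned to GRCm38 (mm10) with STAR 2.6.1 and filtered on mapping quality. The values the authors deposited are raw counts per Ensembl gene over exons (Rsubread), with no normalization, and whether counting used strand was not stated, so exon overlap with another gene is given where it exceeds 10% of a gene named as changed. Symbols, positions and GC content came from GENCODE M21 for the same build (99.57% of identifiers matched), and lengths from the deposited table.

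Counts were scaled by TMM and tested with edgeR 4.0.16 (R 4.3.3; glmQLFit, glmQLFTest) after filterByExpr (min.count 10, min.total.count 15), with genotype as the only term and an adjusted p threshold of 0.05 over all genes. DESeq2 1.42.0, limma-voom (limma 3.58.1), other scaling factors and filters, GC and length offsets, a replicate block, and leaving out each library were alternatives. Biological variation between replicates was 6.81% at the common dispersion. Libraries of a group differed by more than sampling noise (chi-square per degree of freedom of 2.48 or more). The fits were tested on simulated data. Members and lists were chosen with earlier results of these data known. By the naming rule, values per library are given for called members and, in each family, for the uncalled member highest per kilobase and the uncalled one with the smallest p. Up to 5 called pathway genes are named per list, to which Mical2 and Crmp1 were added among the effectors. Protein sequences were not used here.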

Additional observations from a re-analysis of the deposited data

How the results depend on the processing

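All 17 called guidance genes kept their direction in every alternative. Leaving out 1 library in turn gave 9 to 18 called members, 5 to 14 called pathway genes outside the members and 498 to 1326 among all genes, with the lowest counts without Control 3 or CBP-ifKO 2, where fewer samples were fitted. Beside the 10 pathway genes reported, DESeq2 called 6, and an adjusted p under 0.01 left 12 members, 6 pathway genes and 476 of all genes. The log2 difference of Crebbp stayed between -1.08 and -0.87 and was called in all fits. Library totals alone gave 514 higher and 667 lower genes and GC and length offsets 371 and 727, against 252 and 897 reported. In the pathway genes outside the members these settings gave 1 higher and 7 lower, and 2 higher and 6 lower. Library totals moved the median of all genes by 0.046. Some uncalled members turned from below to above 0 with GC and length offsets, namely Sema4c (0.03), Sema6d (0.01), Plxnb1 (0.06), Plxnb2 (0.06), Plxnd1 (0.02), Efna2 (0.09) and Slit1 (0.062, and 0.065 with the replicate block added). Plxnc1 and Efna5 were above 0 in other alternatives, with highest values of 0.01 and 0.14. The cause was not tested.

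The reported fit did not pair libraries by replicate number. Deviations of same-numbered libraries correlated at 0.077, 0.037 and 0.0022, but with so few libraries these values cannot exclude a shared litter or preparation. With the replicate block 18 members, 11 pathway genes and 1210 of all genes were called. Combining the replicate block with GC and length offsets gave 21, 15 and 1839.

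Depth and 3 pools per group limited the precision for scarce members such as Sema3f (SE 0.39), Efna2 (SE 0.27) and Efna5 (SE 0.19), and a missing call there does not show an equal level.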
